A study of Capra hircus with 29 samples.

Results

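The genes described here are the writers, readers and erasers of N6-methyladenosine (m6A), the most common internal mark of messenger RNA. They are 10 gene symbols chosen by name, and earlier results of these data were known at that time. The 10 are 3 writers (METTL3, METTL14 and WTAP), 5 readers (YTHDF1, YTHDF2, YTHDF3, YTHDC1 and YTHDC2) and 2 erasers (ALKBH5 and FTO). They were looked up by symbol in a table of 21343 genes and matched 11 rows, because WTAP stands on 2 rows. The row of WTAP with the higher level (ENSCHIG00000026430) is used throughout, whereas the other (ENSCHIG00000016264) averaged 0.0301 FPKM and was above 0.5 FPKM in none of the 29 samples. FPKM is fragments scaled to transcript length and to the mapped fragments of the sample, so it can be compared between genes of different length. Reads from the 2 rows of WTAP could have been divided between them, and the level of WTAP is uncertain to that extent.

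The mark is laid down by a complex in which METTL3 is the catalytic subunit, METTL14 is its partner that helps to hold the RNA, and WTAP is the adaptor that brings the pair to nuclear speckles. Proteins with a YTH domain bind the mark: the YTHDF proteins act mainly in the cytoplasm on the translation and decay of the messenger, YTHDC1 acts in the nucleus, and YTHDC2 is an RNA helicase known for its role in meiosis. ALKBH5 and FTO are demethylases that remove methyl groups from RNA. A growing oocyte stores maternal messengers and later clears them, and in mouse YTHDF2 is known for its part in that clearance.

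The RNA came from oocytes of Ji'ning grey goats (Capra hircus), and the labels give no treatment beyond the group. H stands for the high fertility goats and L for the low fertility goats, and the middle letter gives large, medium or small follicles. The labels set the litters at more than 3 and fewer than 2 kids, whereas the written methods include 3 kids in the high and 2 kids in the low group. HLO, LLO, HMO, LMO and LSO had 5 samples each and HSO had 4, numbered 1, 3, 4 and 5. Per the methods, oocytes of a stage from several goats were put together and then divided into samples of a few oocytes each, which is stated for the high fertility group. The samples of such a group are therefore portions of a shared pool and not separate goats, and for low fertility the goats behind a sample are not given. The p-values below measure the spread between these samples, which may in part be technical, and not the spread between goats. The ages of the goats are not given.

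All 12 oocyte markers looked for were in the table and passed 0.5 FPKM in at least 1 sample, with GDF9 above it in 29 of 29. However, NLRP5 averaged 0.303 FPKM and was above 0.5 FPKM in only 5 samples, DAZL in 21 and FIGLA in 28. Of 9 granulosa cell markers present, 3 were ever above 0.5 FPKM, and AMH, AMHR2 and HSD17B1 were listed at 0 in all samples. INHBA averaged 0.677 FPKM, reached 5.21 FPKM and was above 0.5 FPKM in 10 of 29 samples. FST was above it in 5 samples and INHA in 1. The summed level of the granulosa cell list was between 0.114 and 7.38 FPKM. Of 6 theca or stroma markers 4 were in the rows used, with a summed level between 2.94 and 18.9 FPKM. DCN averaged 7.95 FPKM and COL1A2 1.73 FPKM, whereas LUM averaged 0.408 FPKM and COL1A1 was listed at 0 in 27 of 29 samples. The sum of FPKM per sample ran from 222697 to 490048. The lowest sum was that of LMO-2, and the next lowest sample reached 347806. Since the values are from bulk RNA, fewer cells of a type and less RNA per cell cannot be told apart.

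By mean level the writers stood at the top of the 10 genes and the eraser ALKBH5 at the bottom. METTL14 averaged 12.9 FPKM (SD 6.73, n = 29) and was the highest of the 10 in 29 of 29 samples. WTAP followed with 4.67 ± 3.71 FPKM (SD, n = 29) and METTL3 with 2.19 ± 1.33 FPKM. Thus the catalytic subunit was the least abundant transcript of the 3 writers.

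Among the readers only YTHDF3, at 1.72 ± 0.634 FPKM (SD, n = 29), came close to METTL3. In single samples METTL3 was above YTHDF3 in 17 of 29. YTHDC2 averaged 1.01 FPKM, YTHDC1 0.937 FPKM, YTHDF1 0.740 FPKM and YTHDF2 0.722 FPKM. The eraser FTO lay within the same narrow band at 0.860 FPKM, and ALKBH5 was below it at 0.301 FPKM. The step between neighbours in this order was larger than the SD of their difference on the log2(FPKM + 1) scale in 2 places, from METTL14 to WTAP and from YTHDF3 to YTHDC2. The 5 genes from YTHDC2 down to YTHDF2 were therefore not ordered beyond their spread.

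Within its own sample, METTL14 stood between the 83.7th and the 93.9th percentile of all 21343 genes by FPKM, and WTAP between the 70.9th and the 90.6th. ALKBH5 ranged from 0 to the 72.7th percentile, was above 0.5 FPKM in 7 of 29 samples and was the lowest of the 10 genes in 21. YTHDF1 was above 0.5 FPKM in 17 samples and YTHDF2 in 21.

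**Figure D1:**
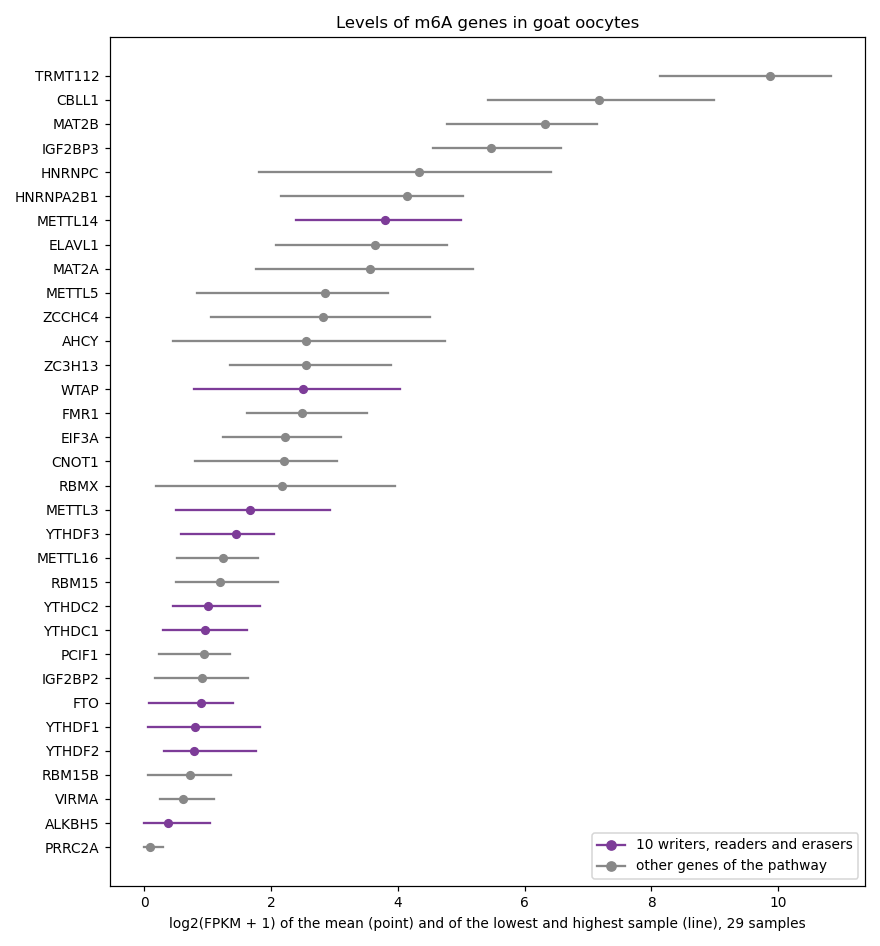
Levels of the 10 m6A genes (purple) and of other genes of the pathway (grey) over 29 oocyte samples, as log2(FPKM + 1) of the mean (point) and of the lowest and highest sample (line). Where a symbol has several rows the highest is drawn, and IGF2BP1, listed at 0 throughout, is left out. METTL14 (mean 12.9 FPKM) leads the purple genes and ALKBH5 (0.301 FPKM) is the lowest of them.

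Genes of the same role were compared within samples in 8 pairs, by a two-sided paired permutation test with 100000 resamples on log2(FPKM + 1), with p-values adjusted over the 8 pairs. METTL3 was lower than METTL14 by a mean log2 difference of -2.08 (SE 0.08), in 29 of 29 samples. METTL3 was also lower than WTAP, with a difference of -0.62 (SE 0.12), in 23 of 29 samples, and METTL14 was higher than WTAP by 1.46 (SE 0.12) in 29 of 29. Each of these had an unadjusted permutation p of 1e-05, the smallest that the resamples can give, and an adjusted permutation p of 1.33e-05.

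YTHDF3 was the leading YTHDF transcript. YTHDF1 was lower than YTHDF3 with a log2 difference of -0.67 (SE 0.09) and YTHDF2 was lower than YTHDF3 with -0.66 (SE 0.09), each in 27 of 29 samples and at the same adjusted permutation p of 1.33e-05. YTHDF1 and YTHDF2 gave a difference of -0.01 (SE 0.07, adjusted permutation p = 0.901). For the nuclear reader YTHDC1 and the helicase YTHDC2 the difference was -0.06 (SE 0.07, adjusted permutation p = 0.471). ALKBH5 was lower than FTO with a difference of -0.53 (SE 0.07) in 27 of 29 samples, at an adjusted permutation p of 1.33e-05.

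The measured ratios between the 3 writers varied from sample to sample, and the part of counting error in this was not tested. The ratio of METTL14 to METTL3 had a median of 5.86 and ran from 2.04 in LMO-2 to 25.2 in LLO-3, and its lowest value without LMO-2 was 3.53 and its highest without LLO-3 10.98. In LLO-3 the level of METTL3 was 0.416 FPKM, which is below 0.5 FPKM. The ratio of WTAP to METTL3 ran from 0.601 in LSO-2 to 6.13 in HLO-1, with a median of 1.80 and a highest value of 3.53 without HLO-1. In METTL14 against WTAP the range was from 1.16 in HLO-1 to 14.6 in LLO-3.

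WTAP had the widest range of the writers relative to its level, from 0.716 to 15.4 FPKM. In large follicles it was 11.3, 0.929, 0.870, 1.15 and 9.65 FPKM in HLO-1 to HLO-5. In LLO-1 to LLO-5 it was 6.60, 2.83, 0.716, 7.79 and 15.4 FPKM. In both groups high and low samples lay side by side, and the groups overlapped over nearly the whole range.

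In medium follicles WTAP was 8.11, 2.42, 1.504, 1.59 and 6.36 FPKM in HMO-1 to HMO-5. In LMO-1 to LMO-5 it was 4.27, 1.69, 1.18, 6.42 and 7.08 FPKM. The samples numbered 2 and 3 were again among the low ones in both groups. In small follicles it was 5.31, 0.930, 3.12 and 7.56 FPKM in HSO-1, HSO-3, HSO-4 and HSO-5. In LSO-1 to LSO-5 it was 4.01, 0.912, 1.92, 5.65 and 8.08 FPKM, so that these groups overlapped as well.

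Read by sample number, the 6 samples numbered 1 held 4.01 to 11.3 FPKM of WTAP and the 6 numbered 5 held 6.36 to 15.4 FPKM. The 5 samples numbered 2 held 0.912 to 2.83 FPKM and the 6 numbered 3 held 0.716 to 1.92 FPKM. No sample numbered 2 or 3 reached the level of a sample numbered 1 or 5. Of the samples numbered 4, the 3 of high fertility were at 1.15, 1.59 and 3.12 FPKM and the 3 of low fertility at 5.65, 6.42 and 7.79 FPKM. This pattern was seen in the data and is given without a test, and the labels do not say what a number stands for.

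Sample number accounted for 74.2% of the sum of squares of WTAP on the log2(FPKM + 1) scale and group for 3.46%, against medians of 33.8% and 16.8% over the 9692 genes that passed the filter. For METTL3 the shares were 61.1% by number and 7.53% by group, and for METTL14 50.0% and 14.3%. For FTO the share by number was 8.45%, below the median of the genes. The readers and ALKBH5 lay between 17.6% (ALKBH5) and 40.1% (YTHDF1) by number.

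The number of genes above 0.5 FPKM moved with the same numbers: it was 8047 to 8450 in the samples numbered 1 and 7699 to 8452 in those numbered 5, against 6646 to 7527 in those numbered 2 and 6806 to 7513 in those numbered 3. The summed FPKM of the 12 oocyte markers was 4113 to 5262 and 3953 to 11050 in the samples numbered 1 and 5, against 1706 to 2852 and 1485 to 2133 in those numbered 2 and 3. Their part in the levels of the writers was not tested. After division by median-of-ratios factors, WTAP was 3.26 to 8.45 in the samples numbered 1 and 4.96 to 11.99 in those numbered 5. It was then 1.13 to 3.83 in the samples numbered 2 and 1.05 to 2.26 in those numbered 3, so the separation narrowed to an overlap between numbers 1 and 2. METTL14 on this scale had medians of 10.035, 8.37, 12.6, 12.3 and 13.5 for the samples numbered 1 to 5, with overlapping ranges.

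**Figure D2:**
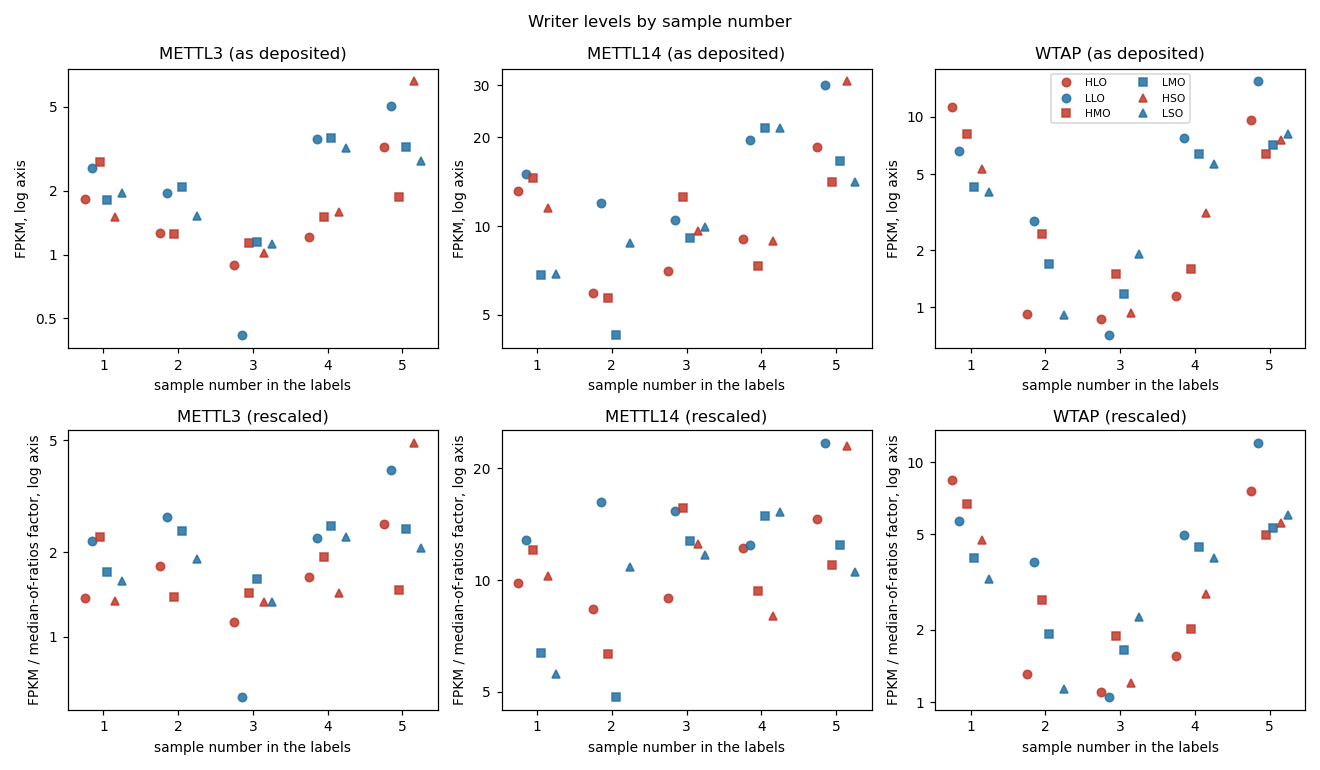
METTL3, METTL14 and WTAP in each of 29 samples against the sample number in the labels, as deposited FPKM (top) and divided by median-of-ratios factors (bottom), on log axes; red is high and blue low fertility, circles are large, squares medium and triangles small follicles. WTAP is at 0.716 to 2.83 FPKM in the samples numbered 2 and 3 and at 4.01 to 15.4 FPKM in those numbered 1 and 5, and METTL14 shows no such step after rescaling.

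METTL14 was detected at 4.27 FPKM or more in every sample. It was 13.1, 5.94, 7.05, 9.02 and 18.6 FPKM in HLO-1 to HLO-5. It was 14.98, 11.99, 10.5, 19.5 and 29.96 FPKM in LLO-1 to LLO-5. The groups overlapped, since HLO-5 and HLO-1 exceeded the lower LLO samples. In HMO-1 to HMO-5 it was 14.5, 5.73, 12.5, 7.33 and 14.1 FPKM. In LMO-1 to LMO-5 it was 6.80, 4.27, 9.08, 21.4 and 16.7 FPKM. The medium follicle groups covered each other, with LMO holding both the lowest and the highest sample. In HSO-1, HSO-3, HSO-4 and HSO-5 it was 11.5, 9.63, 8.89 and 30.9 FPKM. In LSO-1 to LSO-5 it was 6.89, 8.75, 9.94, 21.6 and 14.2 FPKM. HSO-5 was the highest sample for METTL14, close to LLO-5.

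METTL3 gave a similar picture at a lower level. It was 1.84, 1.27, 0.891, 1.21 and 3.21 FPKM in HLO-1 to HLO-5. It was 2.55, 1.96, 0.416, 3.50 and 5.01 FPKM in LLO-1 to LLO-5. The LLO group held both the lowest and the highest value of this pair. In HMO it ran from 1.14 to 2.72 FPKM and in LMO from 1.14 to 3.57 FPKM. In HSO it was 1.505, 1.02, 1.59 and 6.59 FPKM in HSO-1, HSO-3, HSO-4 and HSO-5, and in LSO it ran from 1.12 to 3.20 FPKM. HSO-5 was again the highest sample, followed by LLO-5.

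The members moved together to different degrees across the 29 samples. Spearman's rho was 0.83 for METTL3 with WTAP, 0.71 for METTL14 with WTAP and 0.69 for METTL3 with METTL14. Of the readers, YTHDC1 had the highest rho with METTL3 (0.79). For the erasers rho with METTL3 was -0.20 (ALKBH5) and 0.16 (FTO), and for ALKBH5 with METTL14 it was -0.49. These are descriptions, since all points share their libraries and the scaling of each library.

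Of the reader genes, YTHDF1 was at a very low level in some of the samples numbered 3. It was 0.0457 FPKM in HMO-3, 0.0459 in HSO-3, 0.0526 in LMO-3, 0.0802 in LLO-3 and 0.238 in LSO-3, whereas HLO-3 was at 1.21 FPKM. Its highest value was 2.54 FPKM in LLO-2. All other YTHDF1 values were 0.335 FPKM or more. The lowest value among the other readers was 0.234 FPKM, that of YTHDC1 in LSO-3.

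The question of the study was how oocytes of the high and low fertility goats differ at each follicle stage. For the m6A genes no difference between the fertility groups passed limma's test after adjustment when samples had equal weights. Each stage was compared by limma on log2(FPKM + 1) over all genes that exceeded 0.5 FPKM in 4 or more samples of the comparison, with Benjamini-Hochberg adjustment over those genes. Of the members 9 were tested in each stage, since ALKBH5 did not pass the filter, and 10 over all stages.

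In large follicles 0 of 9 members had an unadjusted limma p under 0.05, against 4.14% of the 8328 genes tested (1.88 to 10.6% with 1 sample left out), and 0 passed after adjustment, against 0 of all genes. The median log2 difference of HLO minus LLO was -0.23 over the members and -0.09 over all genes, and 7 of the 9 members had a difference below 0, while 42.4% of all genes had one above 0. METTL14 averaged 10.7 ± 5.17 FPKM in HLO and 17.4 ± 7.83 FPKM in LLO (SD, n = 5 each). Its log2 difference was -0.66 (SE 0.45), with a 95% interval from -1.63 to 0.32 and an adjusted limma p of 0.828. The interval for WTAP ran from -2.09 to 0.96, so that changes of either sign were within the error.

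ALKBH5 could not pass the filter in large follicles. It was 0.172, 0.856, 0.0966, 0.995 and 0.324 FPKM in HLO-1 to HLO-5. It was 0.290, 0, 0, 0 and 0.179 FPKM in LLO-1 to LLO-5, so that 3 of 5 LLO samples listed it at 0 and the groups overlapped. Without the filter on low values the log2 difference was 0.41 (SE 0.17) with an unadjusted limma p of 0.0398 and an adjusted p of 0.838. Across the other groups the mean of this demethylase lay between 0.279 FPKM in HMO and 0.346 FPKM in HSO.

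In medium follicles 0 of 9 members passed an unadjusted limma p of 0.05, against 8.67% of the 8390 genes tested (4.82 to 12.6% with 1 sample left out), and 0 passed after adjustment, against 0.0715%. The median log2 difference of HMO minus LMO was -0.28 over the members and -0.07 over all genes, with a difference above 0 for 3 of the 9 members and for 43.5% of all genes. The smallest p was that of YTHDC2. It was 0.374, 0.757, 0.879, 0.737 and 0.867 FPKM in HMO-1 to HMO-5 and 1.10, 1.72, 0.602, 2.11 and 1.18 FPKM in LMO-1 to LMO-5. All LMO samples but LMO-3 were above all HMO samples. The log2 difference was -0.41 (SE 0.20), with a 95% interval from -0.86 to 0.03, an unadjusted limma p of 0.0648 and an adjusted p of 0.596. Without LMO-3 the unadjusted p of YTHDC2 was 0.0160 and that of YTHDF1 0.0180, with adjusted p-values of 0.368 and 0.371.

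YTHDF3, the most abundant YTHDF reader, was 1.41, 2.09, 1.13, 0.896 and 1.83 FPKM in HMO-1 to HMO-5. It was 1.90, 1.95, 1.19, 3.11 and 2.63 FPKM in LMO-1 to LMO-5. The groups overlapped between 1.19 and 2.09 FPKM. Its log2 difference was -0.34 (SE 0.24, limma, adjusted p = 0.669). When limma's array weights were used, which give less weight to samples far from their group, the difference was -0.66 and the adjusted p was 0.0459, and 12.1% of all genes passed after adjustment with these weights. With them 6 of the 9 members passed an unadjusted p of 0.05, all lower in HMO, and so did 39.8% of all genes.

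In small follicles 0 of 9 members passed an unadjusted limma p of 0.05, against 4.41% of the 8376 genes tested (1.88 to 7.95% with 1 sample left out), and 0 passed after adjustment, against 0.0119%. The median log2 difference of HSO minus LSO was 0.04 over the members and -0.01 over all genes, with a difference above 0 for 5 of the 9 members and for 49.2% of all genes. YTHDF2 came nearest to the limit. It was 0.237, 0.341, 0.612 and 0.684 FPKM in HSO-1, HSO-3, HSO-4 and HSO-5. It was 2.38, 0.691, 0.610, 0.813 and 1.26 FPKM in LSO-1 to LSO-5. LSO-3 alone lay within the range of HSO. The means were 0.469 ± 0.214 FPKM (SD, n = 4) and 1.15 ± 0.730 FPKM (SD, n = 5), and the log2 difference was -0.50 (SE 0.24), with a 95% interval from -1.03 to 0.02. The unadjusted limma p was 0.0578 and the adjusted p 0.880. Its unadjusted p was 0.0434 without LSO-2 and 0.0373 without LSO-3, and neither passed after adjustment.

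Over all stages together, with stage in the model, 0 of 10 members passed an unadjusted limma p of 0.05, against 9.99% of the 9692 genes tested, and 0 passed after adjustment, against 0.0103%. The difference of high minus low fertility was below 0 for 8 of the 10 members and above 0 for ALKBH5 and FTO. Of all genes 42.8% had a difference above 0. The median was -0.18 over the members and -0.04 over all genes.

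YTHDF2 was again the nearest. It ranged from 0.237 to 0.923 FPKM with a median of 0.597 in the 14 high fertility samples, and from 0.261 to 2.38 FPKM with a median of 0.691 in the 15 low fertility samples. The ranges overlapped between 0.261 and 0.923 FPKM, and all values above 0.923 FPKM were in LSO and LLO. The log2 difference was -0.25 (SE 0.12), with a 95% interval from -0.49 to 0.00015, an unadjusted limma p of 0.0501 and an adjusted p of 0.5001. For YTHDC2 it was -0.21 (SE 0.13, limma, adjusted p = 0.602) and for YTHDC1 -0.20 (SE 0.13, limma, adjusted p = 0.617). The writers had wider intervals, from -0.63 to 0.21 for METTL3, from -0.67 to 0.36 for METTL14 and from -0.94 to 0.53 for WTAP. With array weights 7 of 10 members passed the unadjusted limit, as did 33.8% of all genes, and after adjustment 0 members passed, against 7.13% of all genes.

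**Figure D3:**
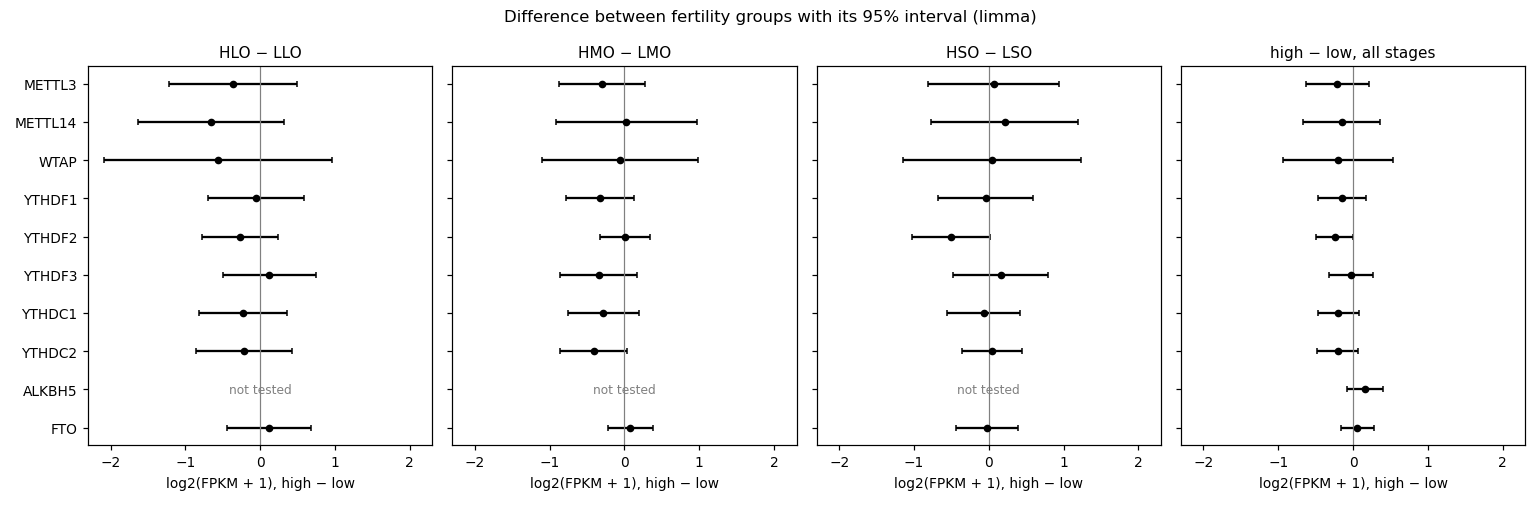
Difference of high minus low fertility in log2(FPKM + 1) for each m6A gene at each stage and over all stages, with points at the limma estimate and bars at its 95% interval. Every interval includes 0, the nearest to the limit being YTHDF2 over all stages (-0.25, adjusted p = 0.5001), and ALKBH5 was not tested within a stage.

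The 6 groups overlapped for all 10 genes. In each of the 15 pairs of groups, the samples of the 2 groups overlapped for all members. For comparison, the samples did not overlap in 0.432% of the genes tested between HLO and LLO, in 1.70% between HMO and LMO and in 2.05% between HSO and LSO. The share over all genes was not computed for the other pairs of groups. At shares this low, overlap in all 10 genes does not set them apart from other genes. LLO had the highest mean for the 3 writers, YTHDF1 and YTHDC1, and HMO had the lowest mean for WTAP, YTHDF1, YTHDF3, YTHDC1 and YTHDC2. The highest group mean was between 1.41 times (FTO) and 2.81 times (YTHDF1) the lowest, except for ALKBH5, where it was 5.21 times.

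**Figure D4:**
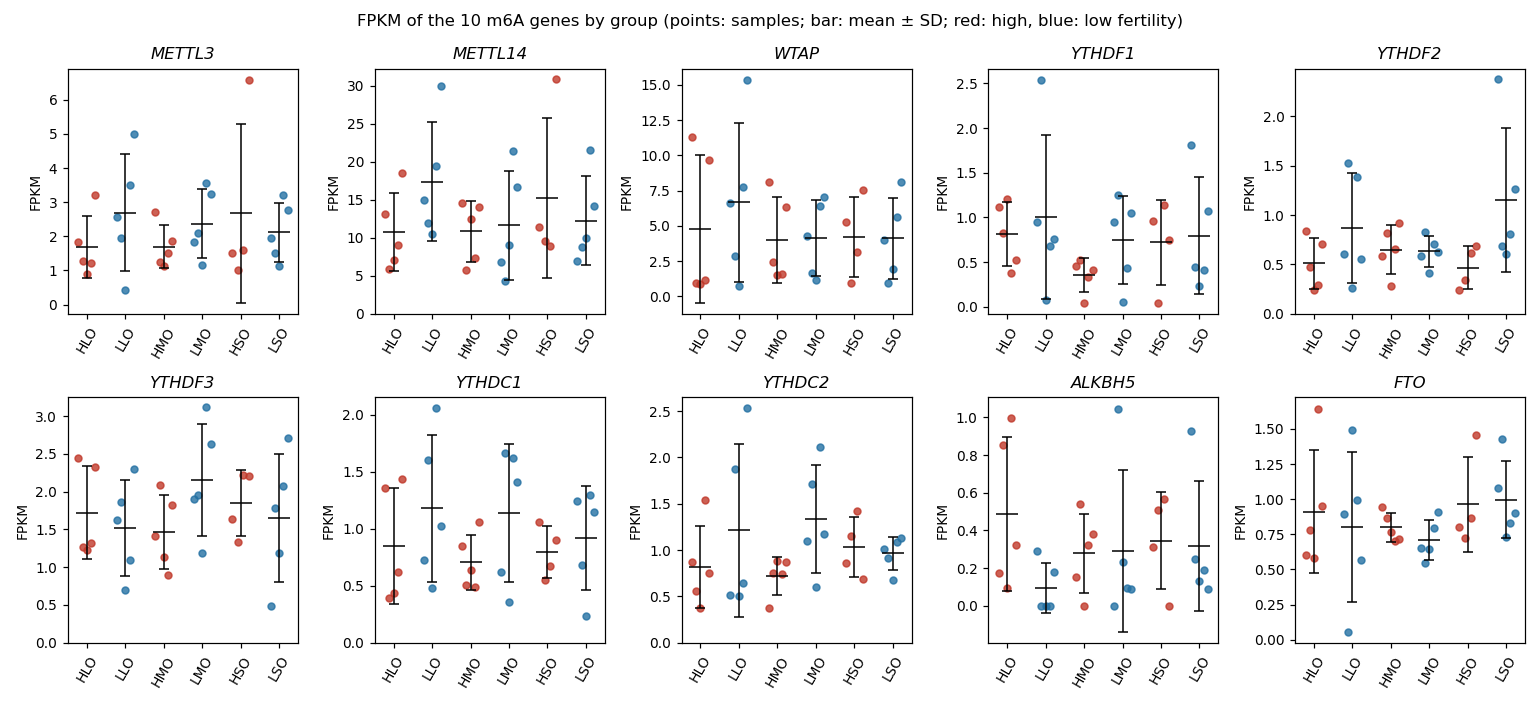
FPKM of the 10 m6A genes in 29 samples by group, with a point per sample and a bar at the mean with its SD; red is high and blue low fertility, and each panel has its own scale. Groups overlap in every panel, and METTL3 and METTL14 each have a single high HSO sample, at 6.59 and 30.9 FPKM.

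Between the follicle stages no difference of a member passed the test. By limma's F-test over the 3 stages with fertility in the model, 0 of 10 members passed an unadjusted p of 0.05, against 1.66% of the 9692 genes (0.88 to 5.1% with 1 sample left out), and 0 passed after adjustment, as for all genes. The smallest p was that of YTHDF1 (0.357, adjusted p 0.99998). Its mean was 0.907 ± 0.666 FPKM in large follicles (SD, n = 10), 0.553 ± 0.408 FPKM in medium ones (n = 10) and 0.763 ± 0.547 FPKM in small ones (n = 9). METTL14 averaged 14.1, 11.2 and 13.6 FPKM in the same order, with SDs of 7.16, 5.498 and 7.81 FPKM.

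The interaction of fertility and stage, which asks whether the fertility difference changed between stages, passed an unadjusted limma p of 0.05 in 0 of 10 members, against 7.89% of all genes, and 0 of all genes passed after adjustment. The smallest p was that of YTHDF2 (0.233, limma, adjusted p = 0.844). Its fertility difference was -0.27 in large, 0.01 in medium and -0.50 in small follicles on the log2 scale.

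The wider m6A pathway was followed by a list of 24 symbols, which had 36 rows in the table, since several symbols stand on more than 1 row. Of the other proteins of the writer complex, CBLL1, a ubiquitin ligase, averaged 143 ± 116 FPKM (SD, n = 29), far above the 3 writers. ZC3H13, which helps to hold the complex in the nucleus, averaged 4.84 FPKM. RBM15, an RNA-binding protein that recruits the complex, averaged 1.28 FPKM, and VIRMA, its large scaffold protein, 0.524 FPKM.

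TRMT112, the activator shared by METTL5 and other methyltransferases, had 2 rows at 563 and 941 FPKM, between which reads could have been divided. METTL5 and ZCCHC4, which methylate ribosomal RNA, averaged 6.19 and 6.04 FPKM. Of the IGF2BP readers, IGF2BP3 averaged 43.6 FPKM, IGF2BP2 0.870 FPKM, and IGF2BP1 was listed at 0 in 29 of 29 samples. MAT2B, the regulatory subunit of the enzyme that makes the methyl donor S-adenosylmethionine, averaged 79.4 FPKM, and MAT2A, its catalytic subunit, 10.8 FPKM.

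Of the rows of this list 24 were tested in large, 23 in medium and 24 in small follicles, and 0 passed after adjustment in any of the comparisons. By an unadjusted limma p of 0.05, 0 passed in large and 0 in small follicles. In medium follicles the 2 rows of TRMT112 passed, higher in HMO, as did 5.09% of all genes in that direction, with log2 differences of 0.97 (SE 0.37, limma, adjusted p = 0.491) and 0.86 (SE 0.36, adjusted p = 0.534) for HMO minus LMO. They were also the 2 of 24 tested rows that passed for the interaction (limma, adjusted p = 0.390 and 0.485), as did 7.89% of all genes. Both rows carry the same symbol and may not be separate results.

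Over all stages 3 of the 24 rows passed the unadjusted limit, all lower in high fertility, against 6.59% of all genes in that direction. They were ZC3H13 at -0.60 (SE 0.23, limma, adjusted p = 0.434), EIF3A, a translation initiation factor subunit, at -0.42 (SE 0.19, adjusted p = 0.476) and VIRMA at -0.17 (SE 0.08, adjusted p = 0.484). ZC3H13 averaged 3.37 ± 1.28 FPKM (SD, n = 14) in high and 6.21 ± 3.94 FPKM (SD, n = 15) in low fertility. By the F-test over stages 0 of 24 rows passed.

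The genes whose levels were most like those of each member were named by Spearman's rho over the 29 samples, among the genes that passed the filter and whose symbol stands on 1 row (8233, or 8234 for WTAP). For WTAP they were THOC6 (rho 0.94) and HDAC3 (0.93), and 911 genes had a rho above 0.8 with it. For METTL3 they were HSP90B1 (0.93) and TEX10 (0.92), with 366 genes above 0.8, and for METTL14 FANCI and TMEM87A (0.93 each), with 257. The writers therefore shared their course over the samples with many genes.

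The readers had fewer such genes. Their mean levels were also below those of the writers, and the part of the level in this was not tested. For YTHDF3 the nearest were ACLY (0.91) and MYLIP (0.89), and 61 genes were above 0.8. For YTHDC1 they were EPS15L1 (0.91) and RASA1 (0.90), with 132 genes. For YTHDF2 they were ZW10 (0.85) and SIRT1 (0.83), with 4 genes, and for YTHDC2 TPR (0.80) and STAU1 (0.79), with 1. YTHDF1 had no gene above 0.8, and its nearest were INCENP and FAM110B (0.75 each). The erasers had none either, the nearest being ATP10A and CXXC5 (0.65 each) for ALKBH5 and SLC9A3R1 (0.64) and MAX (0.63) for FTO.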

How the data were processed

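RNA-seq of 29 goat oocyte samples in 6 groups was used. Polyadenylated RNA was sequenced. The authors kept uniquely matched reads, removed duplicates by picard, ran Cufflinks (2.2.1) on the Ensembl annotation and deposited the FPKM of each gene in each sample; the aligner and the genome build are not given in the sources used here. The FPKM table holds no counts, and no counting interval is given. The paper lists sequence counts and mapping information among its supplementary data. These were not used here, so the depth of each sample was not examined. Columns were matched by their names, and 1 column without a matching sample was not used. No pair of samples held identical values.

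FPKM were taken to log2(FPKM + 1). Genes over 0.5 FPKM in 4 or more samples of a comparison were tested by limma with a trend, with Benjamini-Hochberg adjustment over all genes tested. High and low fertility were compared within each of 3 stages and over all stages, and stage and interaction by F-tests. Pairs of same-role genes were compared by a two-sided paired permutation test with 100000 resamples. All 10 members are named, with a pathway list of 24 symbols and the 2 genes most like each member by Spearman's rho. The members and lists were chosen with earlier results of these data known. The procedures were checked on simulated data. Alternatives were a pseudocount of 0.1, a filter at 1 FPKM or none, quantile normalization, median-of-ratios factors, a replicate block, array weights, an exact permutation test, 1 fit over all samples and each sample left out. No genome coordinates or sequences were used here. Software was Python 3.11.15 (scipy 1.17.1, numpy 2.4.6, pandas 2.3.3), matplotlib 3.10.9 and limma 3.58.1 in R 4.3.3.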

Additional observations from a re-analysis of the deposited data

Results flagged for a closer look

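Each member was looked at in each group for a sample far from the others by Dixon's test at the 95% level. The test used FPKM without a log, over 60 sets of 4 or 5 samples. It flagged 5 sets, where chance alone flags about 1 in 20 if values are normally distributed. It was not run on log2(FPKM + 1), the scale of the other tests, where high values stand out less. In HSO-5, METTL3 was at 6.59 FPKM against 1.02 to 1.59 FPKM in the other HSO samples, and METTL14 at 30.9 FPKM against 8.89 to 11.5 FPKM. In HMO-1, YTHDC2 was at 0.374 FPKM against 0.737 to 0.879 FPKM in the other HMO samples. ALKBH5 was at 1.05 FPKM in LMO-2, the sample with the lowest sum of FPKM, against 0 to 0.231 FPKM in the other LMO samples, and at 0.926 FPKM in LSO-1 against 0.0896 to 0.249 FPKM in the other LSO samples.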

How the results depend on the processing

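The calls of 0 members after adjustment held under the alternatives run, except YTHDF3 between HMO and LMO with array weights (-0.66, limma, adjusted p = 0.0459). With these weights 1011 genes (12.1%) passed after adjustment for HMO and LMO, 691 (7.13%) over all stages and 231 (2.38%) for the interaction. The count of members with an unadjusted limma p under 0.05 moved as follows. With array weights it was 2 for HLO and LLO, 6 for HMO and LMO, 1 for HSO and LSO, 7 over all stages and 1 for the interaction, while the genes past the same limit were 1372, 3341, 679, 3278 and 1619. In the fits as reported these genes were 345, 727, 369, 968 and 765. Without the filter it was 1 for HLO and LLO (ALKBH5), against 3.82% of all genes. For HSO and LSO it was 1 (YTHDF2) with a pseudocount of 0.1, median-of-ratios factors, quantile normalization and 1 fit over all samples. Of all genes 4.47%, 5.46%, 5.11% and 4.3% passed there, in the same order. Over all stages the count was 1 (YTHDF2) with quantile normalization, against 10% of all genes. With 1 sample left out the count ran from 0 to 2 for HMO and LMO (2 without LMO-3, against 11.6% of all genes). For HSO and LSO it ran from 0 to 1 (1 without LSO-2 or LSO-3, against 6.66% and 3.01% of all genes). Over all stages it ran from 0 to 1: it was 1 for ALKBH5 without LMO-2, and 1 for YTHDF2 without HLO-1, HLO-5, HMO-2, HMO-4, HMO-5, LLO-1, LLO-3, LLO-5, LMO-1, LMO-3, LMO-5, LSO-2 or LSO-3. In these fits 7.48% (without LMO-2) to 13.8% (without LLO-1) of all genes passed the same limit. The stage test gave 0 in all alternatives run. Over all genes the count at this limit also moved by over 1.5 times in the stage test with array weights (817 against 161), no filter (364) and the replicate block (277), in HLO and LLO with 1 fit over all samples (950) and no filter (609), in HMO and LMO and in HSO and LSO with no filter (1302 and 743), and in the interaction with no filter (1197). With 1 sample left out it was 175, 186, 216, 673, 190, 879 and 152 for HLO and LLO without HLO-2, HLO-3, HLO-4, LLO-1, LLO-2, LLO-3 and LLO-5. It was 417, 481 and 398 for HMO and LMO without HMO-1, HMO-3 and HMO-4, and 153, 226, 226 and 643 for HSO and LSO without HSO-1, HSO-5, LSO-1 and LSO-5. In the stage test it was 85, 489 and 93 without LLO-2, LLO-4 and LLO-5. After adjustment, the genes past the limit without HMO-2 were 160 for HMO and LMO, against 6, and 59 for the interaction, against 0, and without LLO-4 12 for the interaction. The 8 same-role pairs kept their side of the threshold in all alternatives run, but the sizes of pairs with low levels moved. ALKBH5 minus FTO ran from -1.57 to -0.50, YTHDF1 minus YTHDF3 from -1.35 to -0.64 and YTHDF2 minus YTHDF3 from -1.22 to -0.64. The lowest of these values came with the pseudocount of 0.1. The causes were not tested, beyond the fewer samples or other genes that an alternative uses.

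Some differences in log2(FPKM + 1) changed sign, none of them past the test. For HLO minus LLO, YTHDF1 was 0.082 with a pseudocount of 0.1, 0.010 with median-of-ratios factors and 0.11 with array weights, where YTHDF3 was -0.092 and FTO -0.019. For HMO minus LMO, YTHDF2 was -0.015 with the pseudocount of 0.1, WTAP 0.024 with median-of-ratios factors, and with array weights METTL14 was -0.57, YTHDF2 -0.049 and FTO -0.031. For HSO minus LSO, YTHDC1 was 0.013 and FTO 0.00054 with quantile normalization, and with array weights METTL3 was -0.15, METTL14 -0.080, YTHDF1 0.18 and YTHDC1 0.013. Over all stages, YTHDF3 was 0.029 with median-of-ratios factors and FTO -0.037 with array weights. Leaving out 1 sample gave, for HLO minus LLO, -0.25 to 0.18 for YTHDF1, -0.011 to 0.23 for YTHDF3 and -0.062 to 0.25 for FTO. For HMO minus LMO it gave -0.24 to 0.28 for METTL14, -0.33 to 0.15 for WTAP and -0.051 to 0.096 for YTHDF2. For HSO minus LSO it gave -0.36 to 0.28 for METTL3, -0.17 to 0.43 for METTL14, -0.26 to 0.45 for WTAP, -0.16 to 0.18 for YTHDF1, -0.032 to 0.30 for YTHDF3, -0.22 to 0.0044 for YTHDC1, -0.049 to 0.12 for YTHDC2 and -0.14 to 0.045 for FTO. Over all stages it gave -0.088 to 0.018 for YTHDF3 and -0.00053 to 0.098 for FTO, and for YTHDF1 minus YTHDF2 within samples -0.038 to 0.0092.

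With the sample number as a replicate block the count was 0 in the 3 stage comparisons, the stage test and the interaction and 1 over all stages (YTHDF2, with limma's unadjusted p at 0.0412 and its adjusted p at 0.316). For HSO minus LSO the block gave -0.00048 for METTL3, -0.26 for WTAP and 0.045 for FTO. Over all genes the block gave 684, 1376, 773, 1461 and 1405 at the unadjusted limit for the 3 stages, all stages and the interaction. In the fits as reported the numbers were not taken to pair the samples, and the labels do not say what a number stands for. Many samples with the same number did deviate together. Of 70 such pairs 55 had a correlation above 0.1, with a median of 0.47, and 20 of 29 samples correlated best with their own number. In contrast, the pairs numbered 4 in the 3 stage comparisons gave -0.07, -0.43 and -0.51. The table holds no counts, and for genes near 0.5 FPKM, ALKBH5 above all, low values limit what could be tested.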
